A study of Mus musculus with 8 samples.

Results

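Transcripts of 50 genes for making ribosomes were followed in donor T cells with and without STAT3. The members are nucleolar genes for RNA polymerase I and for processing and assembling ribosomal RNA, taken by gene name from the deposited tables. They are 50 of the 25078 gene rows, and all 50 were among the 12428 genes with enough counts to be tested.

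The building of ribosomes begins in the nucleolus. RNA polymerase I makes a long ribosomal RNA precursor there, small nucleolar ribonucleoprotein particles (snoRNPs) modify it, and assembly factors fold and cut it into the small and the large ribosomal subunit. Activated T cells make many ribosomes while they grow and divide, and the transcription factor MYC is a known driver of the genes involved.

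Spleen T cells were sorted on day 6 after hematopoietic cell transplantation (HCT), a model of graft-versus-host disease. The donors were C57BL/6 mice, either wild-type (WT) or STAT3-/-, and the hosts were WT BALB/c mice given a lethal dose of radiation. In both arms the graft also held WT C57BL/6 marrow freed of T cells. In the STAT3-/- donors, a Cre recombinase under Cd4 regulatory sequences deletes floxed Stat3, so that the gene is lost in both CD4 and CD8 T cells. Each of the 4 groups (WT CD4, STAT3-/- CD4, WT CD8 and STAT3-/- CD8, with STAT3-/- written STAT3KO or KO in the plots) had 2 libraries of messenger RNA, each from donor T cells pooled over several recipients. The labels number the 2 libraries of a group 1 and 2. Serial numbers in the titles run together within a number, but no label says that it marks a shared transplant or day. The p-values measure only the spread between these pools.

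The libraries held between 20171396 and 23282757 counts. Stat3 itself was at 436 and 428 CPM (read counts relative to the total of a library, adjusted by TMM, the trimmed mean of M-values) with WT CD4 cells and at 138 and 141 CPM with STAT3-/- CD4 cells. With CD8 cells it was at 431 and 436 CPM for WT, and at 120 and 143 CPM for STAT3-/-. It fell in both cell types, with an edgeR log2 fold change of -1.63 (adjusted p = 0.000753) for CD4 and of -1.72 (adjusted p = 0.00536) for CD8. The summed level of 6 T cell genes lay between 4344 and 4961 CPM. Cd4 was at 1361 CPM or more in the CD4 libraries and at 8.16 CPM or less in the CD8 libraries, and Cd8a was at 819 CPM or more in the CD8 libraries and at 16 CPM or less in the CD4 libraries. Of the other cell types, 7 erythroid genes summed to between 0.386 and 5.73 CPM with 4 of the 7 at 0 in all libraries, 5 hepatocyte genes to at most 0.168 CPM with 2 of the 5 at 0, and 7 neutrophil and myeloid progenitor genes to between 2.65 and 15.8 CPM with none at 0 in all libraries. The sum of 6 B cell genes, between 38.2 and 171 CPM, was mostly Cd22. The sum of 8 macrophage genes was higher in the library numbered 2 in every group (21.9 against 70.2, 22.5 against 88.2, 42.6 against 137 and 56.5 against 114 CPM). The sum of 9 immediate early and heat shock genes was higher in the library numbered 1 in all 4 groups (8387 against 2601, 5160 against 2282, 3758 against 1592 and 2655 against 1484 CPM). Within each number this sum was lower in the STAT3-/- library, but not every gene of the list was. In number 2, Fosb had 423 CPM in WT and 511 in STAT3-/- CD4, and 254 and 323 CPM in CD8 libraries. Hspa1a and Hspa1b were also higher in the STAT3-/- library of number 2 in both cell types. So were Ier2 and Dnajb1 in CD4, and Egr1 in CD8 libraries. Fos, Jun and Junb were lower in number 2 in both cell types, Egr1 in CD4, and Ier2 and Dnajb1 in CD8 libraries. The part of either sum in the member values was not tested.

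The members took 0.529% and 0.603% of all counts in the WT CD4 libraries (mean 0.566% ± 0.0523, SD, n = 2) and 0.433% and 0.48% in the STAT3-/- CD4 libraries (0.456% ± 0.0335, n = 2). In CD8 T cells the share was 0.551% and 0.605% in WT (0.578% ± 0.0381, n = 2) and 0.492% and 0.518% in STAT3-/- (0.505% ± 0.0183, n = 2). Both STAT3-/- libraries were below both WT libraries of the same cell type. Per length, the most abundant members were Npm1, a nucleolar histone chaperone, with a mean of 179 RPKM (a read count scaled to exon length and library size) over the 8 libraries, Ncl, the nucleolar scaffold nucleolin, with 143 RPKM, and Ddx21, an RNA helicase that acts in polymerase I transcription and rRNA processing, with 97.3 RPKM. The lowest was Fbl, the methyltransferase of box C/D snoRNPs, with 5.06 RPKM. These are means over the annotated exons, and reads that also match a near-identical gene copy may be missing from them.

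Promoter sequences were read from the RefSeq table of build GRCm38.p6, which covers 250 bases before to 50 bases after each start site and had an entry for 43 of the 50 members. They were searched at any of a gene's listed start sites for the E-box CACGTG, the letters that MYC and its partner MAX are known to bind, which read the same on both strands. The motif was present in 10 of the 43 members (23.3%), in 8.09% of 27025 genes with an entry and in 11.6% of the 9838 tested genes with one. The windows below belong to the 3 members that carried the motif and also fell in STAT3-/- CD4 T cells. They are shown 5′ to 3′ on the strand of the gene, with the motif in capitals and up to 12 bases on each side.
Mybbp1a, chr11:72441355-72441376, plus strand: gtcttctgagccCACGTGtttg
Utp20, chr10:88826765-88826789, minus strand: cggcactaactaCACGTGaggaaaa
Utp4, chr8:106893643-106893672, plus strand: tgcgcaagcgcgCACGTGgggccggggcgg
In these 3 the motif began 40, 37 and 15 bases after the start site. The other 7 members with the motif were Imp4, Ltv1, Nop2, Pes1, Tsr1, Utp18 and Wdr43. The letters TTCNNNGAA, the spacing known for STAT factors, were in 5 of the 43 members (Nob1, Noc4l, Nop58, Polr1b and Utp15, 11.6%), against 9.55% of all genes with an entry and 8.39% of the tested ones. A match is a description of the letters and not a measured binding site.

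The first comparison asked how the members differed between STAT3-/- and WT CD4 T cells. Of the 50 members, 12 fell and 0 rose (edgeR quasi-likelihood test, adjusted p under 0.05 over all genes). Over all tested genes, 11.6% were called, 5.08% lower and 6.54% higher. By the sign of the fold change 45 members were lower and 5 higher, whereas 47.9% of all genes were lower. The median log2 fold change of the members was -0.32, with an interquartile range of -0.47 to -0.18, beside a median of 0.02 over all genes. At an unadjusted p under 0.05 there were 25 members, all lower, beside 3415 of the 12428 genes, 1566 of them lower. Both STAT3-/- libraries were below both WT libraries for 34 members, against 25% of all genes, and above them for 1, Npm3, against 28.5%. With the replicate number as a block in the fit, 29 members were called, all lower, beside 30.1% of all genes, 13.7% lower. EdgeR calls are otherwise those of the fit without the block.

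Factors that assemble the large subunit had 6 of the 12 calls. Rrp1b (chromosome 17, 32036162 to 32062862, build mm10), a nucleolar protein of the large subunit pathway, had 75 and 65.8 CPM in WT CD4 and 37.3 and 33 CPM in STAT3-/- CD4 libraries. It was lower in both STAT3-/- libraries by far more than replicates differed, with the lowest log2 fold change of the members (-1.0 ± 0.14, SE, edgeR adjusted p = 0.00544). Ppan (chromosome 9, 20888175 to 20892179), a Brix-domain protein that joins early large subunit precursors, had 46.4 and 44.6 CPM in WT and 25.9 and 26.8 CPM in STAT3-/- libraries. It had the smallest p of the members, with no overlap of the groups (log2 fold change -0.79 ± 0.10, edgeR adjusted p = 0.00402). Nop16, another early large subunit factor, had 23.9 and 26.6 CPM in WT and 16.5 and 17.1 CPM in STAT3-/- libraries. The groups did not overlap (log2 fold change -0.59 ± 0.12, edgeR adjusted p = 0.0239).

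Wdr12, which forms the PeBoW complex with Pes1 and Bop1, had 74.7 and 101 CPM in WT CD4 and 52.7 and 56.5 CPM in STAT3-/- CD4 libraries, the WT pair standing well apart from each other yet both above the STAT3-/- pair (log2 fold change -0.68 ± 0.15, edgeR adjusted p = 0.0282). Its partners did not pass the test. Pes1 had a log2 fold change of -0.31 (edgeR adjusted p = 0.171) and Bop1 of -0.18 (edgeR adjusted p = 0.359). Gnl3 (nucleostemin), a nucleolar GTPase, had 67 and 85.9 CPM in WT and 38.7 and 47.9 CPM in STAT3-/- libraries. In both groups the library numbered 2 was the higher one, and the groups did not overlap (log2 fold change -0.82 ± 0.20, edgeR adjusted p = 0.0366). Wdr74, a nucleolar factor of large subunit precursors, had 33.3 and 36.2 CPM in WT and 25.7 and 24.5 CPM in STAT3-/- libraries. Here too the groups were separate (log2 fold change -0.47 ± 0.12, edgeR adjusted p = 0.0417). The other 6 of the 14 large subunit members outside the PeBoW complex were Nop2, Noc2l, Noc3l, Rrs1, Nip7 and Ddx18, all with a fold change below 0 and none called. Noc2l, the most abundant of the 14 per length (38.9 RPKM), had 150 and 123 CPM in WT and 109.8 and 99 CPM in STAT3-/- libraries. These did not overlap, but the difference missed the threshold (log2 fold change -0.39 ± 0.15, edgeR adjusted p = 0.144).

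Among the 19 small subunit factors 3 fell, 16 had a fold change below 0 and the median was -0.23. Rrp12 (chromosome 19, 41862851 to 41896153), needed for export and final processing of ribosomal precursors, had 54.3 and 53.5 CPM in WT CD4 and 35.4 and 32.7 CPM in STAT3-/- CD4 libraries. The replicates lay close together and the groups far apart (log2 fold change -0.66 ± 0.11, edgeR adjusted p = 0.00985). Utp20, a scaffold of the small subunit processome, had 74.6 and 78.6 CPM in WT and 55.1 and 53.8 CPM in STAT3-/- libraries, again without overlap (log2 fold change -0.49 ± 0.12, edgeR adjusted p = 0.0364). Utp4, a processome subunit that joins the precursor early, had 66.1 and 84.9 CPM in WT and 48 and 50.8 CPM in STAT3-/- libraries. Both STAT3-/- values were below the lower WT value (log2 fold change -0.61 ± 0.15, edgeR adjusted p = 0.0432).

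Tsr1, an assembly factor of the small subunit, had one of the larger differences of the members (log2 fold change -0.72 ± 0.22) but also a wide spread (109 and 146 CPM in WT, 66.1 and 88.5 CPM in STAT3-/-), and it was not called (edgeR adjusted p = 0.075). Of its annotated exon bases, 32.3% overlap Srr on the other strand, and the strand setting of the counting was not given, so its counts are uncertain. The same holds for Noc2l, with 20.9% overlapping Samd11, and for Bysl, with 9.37% overlapping Ccnd3.

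The 3 small subunit members with a fold change above 0 were Ddx52, Dcaf13 and Bysl, none of them called. Ddx52, an RNA helicase, had the highest log2 fold change of the members (0.23 ± 0.14, edgeR adjusted p = 0.333), with 160 and 208 CPM in WT and 205 and 227 CPM in STAT3-/- libraries, which overlap. Dcaf13, the most abundant small subunit member per length (69.9 RPKM), had 84.7 and 119 CPM in WT and 98 and 112 CPM in STAT3-/- libraries, the STAT3-/- pair lying within the WT pair (log2 fold change 0.05 ± 0.17, edgeR adjusted p = 0.901). The 13 remaining small subunit members, among them Tsr1, the nuclease Nob1, the U3 snoRNP proteins Imp3, Imp4, Mphosph10 and Rrp9, and the processome subunits Utp15 and Utp18, ranged in log2 fold change from -0.72 (Tsr1) to -0.11 (Imp3), and edgeR called none of them.

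RNA polymerase I and its cofactors had 2 calls among 6 members. Mybbp1a (chromosome 11, 72441327 to 72451770), a nucleolar protein that takes part in ribosomal DNA transcription, had 205 and 203 CPM in WT CD4 and 125 and 126 CPM in STAT3-/- CD4 libraries. Replicates were nearly equal and the groups well separated (log2 fold change -0.70 ± 0.14, edgeR adjusted p = 0.0193). Polr1a, the catalytic subunit of the polymerase, had 90.6 and 88.3 CPM in WT and 72.2 and 69.5 CPM in STAT3-/- libraries. This was the smallest difference of the 12 called members (log2 fold change -0.34 ± 0.09, edgeR adjusted p = 0.0487). Polr1b, the other large subunit of the enzyme, was not called at a log2 fold change of -0.58 ± 0.16 (edgeR adjusted p = 0.0575). Ddx21 had 499 and 558 CPM in WT and 390 and 438 CPM in STAT3-/- libraries, which did not overlap, but it was not called (log2 fold change -0.35 ± 0.12, edgeR adjusted p = 0.107). Nor was Heatr1 called, a factor of both polymerase I transcription and the processome (-0.39, edgeR adjusted p = 0.0657). Tcof1 (treacle), a polymerase I cofactor, had a log2 fold change of 0.03.

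Of the 4 nucleolar chaperones and scaffolds, Nolc1, a chaperone of snoRNPs, fell from 96.8 and 102 CPM to 68 and 75.5 CPM without overlap (log2 fold change -0.47 ± 0.12, edgeR adjusted p = 0.0448). Npm1 had 276 and 329 CPM in WT CD4 and 253 and 307 CPM in STAT3-/- CD4 libraries. The groups overlapped and it was not called (log2 fold change -0.11 ± 0.16, edgeR adjusted p = 0.721). None of the 7 snoRNP core members was called by edgeR, with 4 at an unadjusted p under 0.05, and all 7 had a fold change below 0. The 3 core proteins of box C/D particles, which carry out ribose methylation, had a median of -0.33. The 4 core proteins of box H/ACA particles, which carry out pseudouridylation, had a median of -0.23. Nop58 was the most abundant box C/D protein (72.3 RPKM), with 143 and 162 CPM in WT and 112 and 130 CPM in STAT3-/- libraries, which did not overlap (log2 fold change -0.33 ± 0.12, edgeR adjusted p = 0.11). Nop10 was the most abundant box H/ACA protein (80.2 RPKM), with 57.7 and 68.4 CPM in WT and 54 and 64.2 CPM in STAT3-/- libraries, which overlapped (log2 fold change -0.09 ± 0.13, edgeR adjusted p = 0.701).

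**Figure D1:**
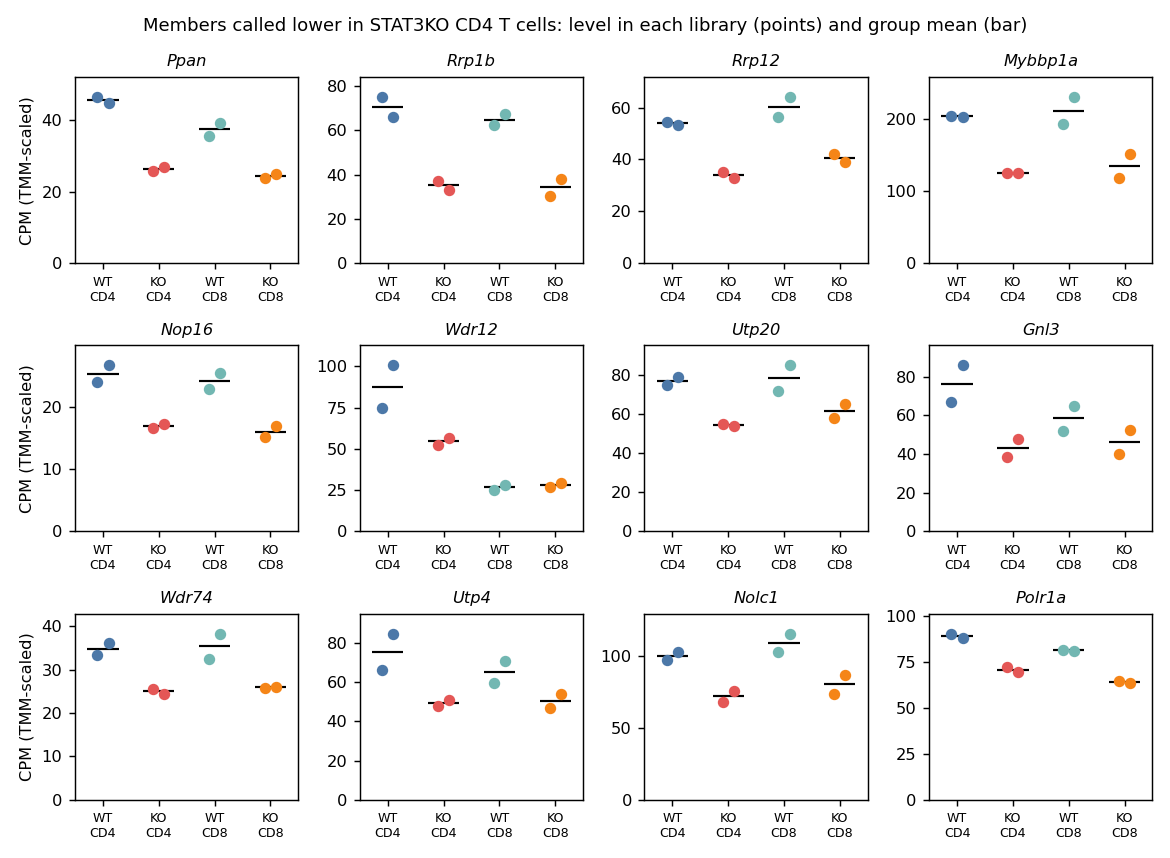
CPM (TMM-scaled, linear axes from 0) of the 12 members that fell in STAT3-/- CD4 T cells, in each of the 8 libraries, with points for libraries and bars for group means of 2. In every panel both STAT3-/- CD4 points lie below both WT CD4 points. In CD8 T cells the same order holds for 10 of the 12, and the exceptions are Wdr12 and Gnl3.

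DESeq2 called 17 members in CD4 T cells, which were these 12 together with Ddx21, Heatr1, Nop14, Polr1b and Tsr1. The share of all genes that DESeq2 called is not given here, so the 17 show no excess over other genes. The number of edgeR calls depended on single libraries. It was 7 without WT CD4 replicate 1, 3 without WT CD4 replicate 2, 2 without STAT3-/- CD4 replicate 1 and 1 (Ppan) without STAT3-/- CD4 replicate 2, and the median log2 fold change lay between -0.36 and -0.25 over the fits that left out 1 library.

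With STAT3 missing from CD8 T cells, 3 members fell, Rrp1b, Ppan and Rrp12, and 0 rose. Over all genes 2.07% were called, 0.732% lower and 1.34% higher. By sign 41 members were lower and 9 higher, and the median log2 fold change was -0.26, beside -0.01 over all genes. At an unadjusted p under 0.05 there were 22 members, 21 of them lower, beside 2400 of the 12428 genes, 1068 of them lower. The STAT3-/- libraries were both below the WT libraries for 34 members, against 24.8% of all genes, and both above them for 3 (Ddx52, Npm1 and Nop10), against 24.9%. With the replicate number as a block, 24 members fell and 1 (Npm1) rose, beside 18.2% of all genes called, 7.89% lower.

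Rrp1b had 62.3 and 67.5 CPM in WT CD8 and 30.4 and 38.1 CPM in STAT3-/- CD8 libraries, both STAT3-/- values again lying far below both WT values (log2 fold change -0.92 ± 0.14, edgeR adjusted p = 0.0274). Ppan had 35.6 and 39.2 CPM in WT and 23.7 and 24.8 CPM in STAT3-/- libraries, with no overlap (-0.62 ± 0.10, edgeR adjusted p = 0.0316). Rrp12 had 56.5 and 64.1 CPM in WT and 42.2 and 39.2 CPM in STAT3-/- libraries, and the STAT3-/- pair lay below the WT pair (-0.57 ± 0.11, edgeR adjusted p = 0.0476). All 3 were among the members called in CD4 T cells.

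The other 9 members that fell in CD4 T cells were not called in CD8 T cells by edgeR. DESeq2 called 9 members there, 4 of them (Mybbp1a, Nolc1, Nop16 and Polr1a) among these 9, besides the 3 named above, Bysl and Polr1b. Here too its share of all genes is not given. Mybbp1a had 192 and 230 CPM in WT CD8 and 119 and 152 CPM in STAT3-/- CD8 libraries (log2 fold change -0.64 ± 0.14, edgeR adjusted p = 0.0664), and Nop16 had 22.8 and 25.4 CPM against 15.1 and 16.8 CPM (-0.60 ± 0.12, edgeR adjusted p = 0.0617). In both genes the groups did not overlap. Utp20 (71.5 and 84.9 CPM against 58 and 65.3), Utp4 (59.4 and 71 CPM against 47 and 54) and Wdr74 (32.6 and 38.4 CPM against 25.9 and 26) did not overlap either, with log2 fold changes of -0.34, -0.37 and -0.45 (edgeR adjusted p = 0.169, 0.246 and 0.0956). Gnl3 (52.2 and 64.9 CPM against 40 and 52.6) overlapped between the groups at a log2 fold change of -0.34 (edgeR adjusted p = 0.41). Polr1a and Nolc1 had -0.34 and -0.45 (edgeR adjusted p = 0.0922 and 0.102). Wdr12 was the exception in sign, with 25.4 and 28.1 CPM in WT CD8 and 26.7 and 29.3 CPM in STAT3-/- CD8 libraries, which overlapped (0.07 ± 0.16, edgeR adjusted p = 0.875).

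The 14 large subunit members had a median of -0.34, the 19 small subunit members -0.31 and the 6 polymerase I members -0.30. The medians of the 3 box C/D, 4 box H/ACA and 4 chaperone members were -0.21, -0.08 and -0.04. Of the most abundant member of each role, Ddx21 (477 and 527 CPM in WT CD8, 399 and 442 in STAT3-/- CD8), Nop58 (160 and 161 CPM against 137 and 149) and Noc2l (135 and 116 CPM against 105 and 86) were lower without overlap, and none was called (log2 fold changes -0.25, -0.16 and -0.39, edgeR adjusted p = 0.303, 0.506 and 0.207). Nop10 (57.2 and 56 CPM against 62.2 and 58.8) and Dcaf13 (102 and 119 CPM against 110 and 127) had small differences above 0, with log2 fold changes of 0.10 in both. 

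Npm1 (chromosome 11, 33152498 to 33163206) had the highest log2 fold change of the members in CD8 T cells. It had 261 and 297 CPM in WT CD8 and 341 and 420 CPM in STAT3-/- CD8 libraries, both STAT3-/- values being above both WT values. The difference was not called (0.45 ± 0.16, edgeR adjusted p = 0.184). Bysl, a small subunit factor, had 41.8 and 42.5 CPM in WT CD8 and 29.6 and 32 CPM in STAT3-/- CD8 libraries, without overlap and also not called (-0.45 ± 0.11, edgeR adjusted p = 0.0897), whereas in CD4 T cells it had 29 and 24.8 CPM in WT and 27.6 and 26.7 CPM in STAT3-/- libraries, with a log2 fold change of 0.01.

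The 3 calls in CD8 T cells did not all stand without any one of the 8 libraries. Ppan and Rrp1b stayed called without WT CD4 replicate 1 or WT CD4 replicate 2, and without each of the other 6 libraries in turn there were 0 calls. The median lay between -0.29 and -0.19 over these fits.

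**Figure D2:**
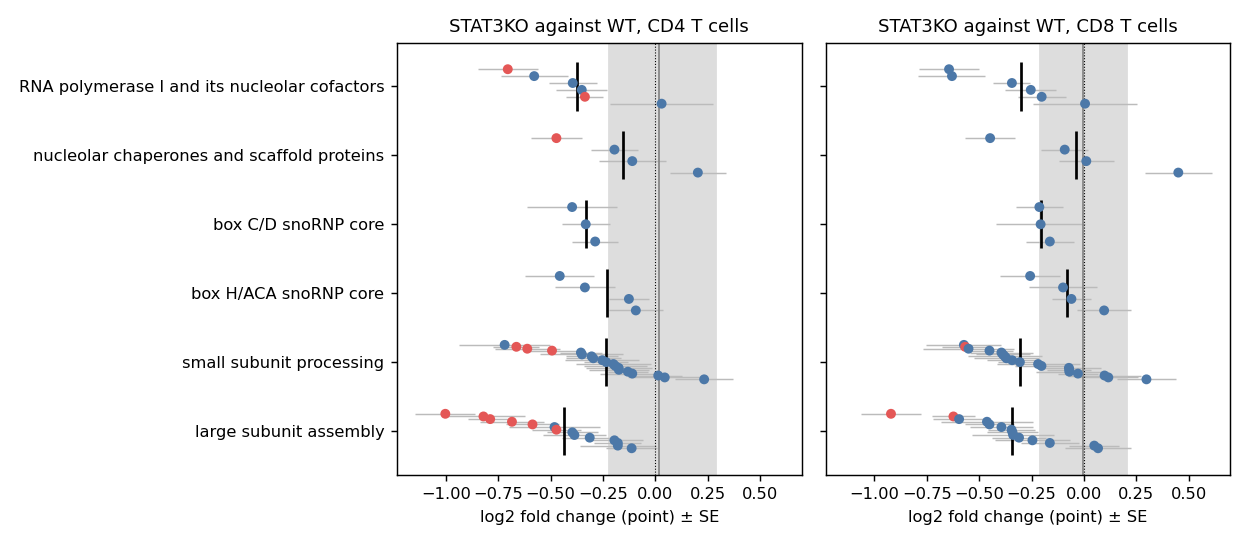
Log2 fold change with its standard error (edgeR) of each member by role, STAT3-/- against WT, in CD4 (left) and CD8 T cells (right). Red points were called, black bars are role medians, and the grey band and line give the interquartile range and the median of all 12428 genes. All 14 large subunit points in CD4 T cells are below 0.

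Libraries that share a number were set side by side, since the number moved with the immediate early and heat shock genes. In CD4 T cells the median log2 ratio of STAT3-/- over WT across the members was -0.34 for the libraries numbered 1 and -0.30 for those numbered 2, and 43 members were lower in both, against 36.7% of all genes. In CD8 T cells the medians were -0.28 and -0.26, and 38 members were lower in both, against 35.7% of all genes. Of the 50 members, 36 (72%) were lower in all 4 library pairs, against 23.7% of all genes, and 1 (Ddx52) was higher in all 4, as were 3103 of the 12428 genes. Rrp1b was the lowest in each number, with log2 ratios of -1.01 and -1.0 for CD4 and -1.03 and -0.82 for CD8. The ratios of Ppan were -0.84 and -0.73 in CD4 and -0.59 and -0.66 in CD8 T cells. Rrp12 had -0.62 and -0.71 in CD4, and -0.42 and -0.71 in CD8 T cells.

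The members themselves also differed by number. Their median log2 difference, number 1 minus number 2, was -0.12 in WT CD4, -0.08 in STAT3-/- CD4, -0.07 in WT CD8 and -0.07 in STAT3-/- CD8 T cells, and 20 members were higher in number 2 in all 4 groups whereas 7 were higher in number 1 in all 4. Over all genes, 2490 were higher in number 2 and 2806 (22.6%) in number 1 in all 4 groups. Tsr1 and Gnl3 were among those higher in number 2 in each group, and Tcof1 was higher in number 1 (179 against 122, 172 against 135, 195 against 135 and 185 against 147 CPM).

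**Figure D3:**
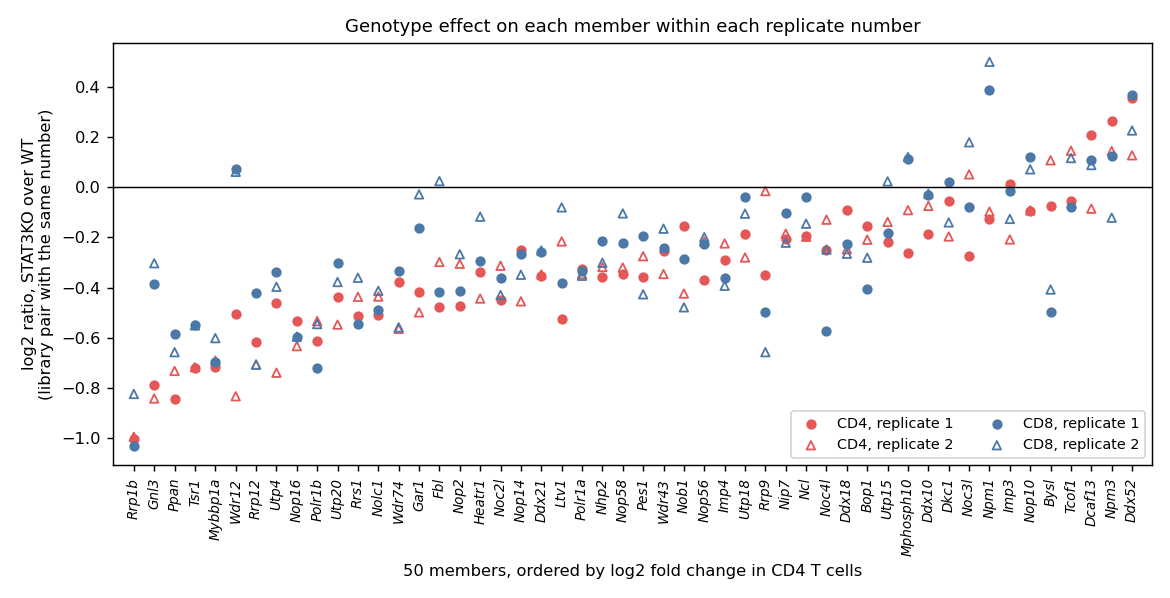
Log2 ratio of STAT3-/- over WT for each of the 50 members, computed between the libraries that share a cell type and a replicate number, with CD4 in red, CD8 in blue, number 1 as filled circles and number 2 as open triangles. Members run from Rrp1b, at about -1 in CD4 T cells, to Ddx52, and most points lie below the line at 0.

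Whether the effect of STAT3 loss differed between the cell types was tested as an interaction. It called 0 of the 50 members and 0 of all 12428 genes (0%) by edgeR, and 0 members by DESeq2 and limma. With the replicate number as a block, edgeR called 2 members (Wdr12 and Npm1), beside 3.24% of all genes. Without the block there were 3 members and 982 genes at an unadjusted p under 0.05. The 3 were Wdr12 (CD8 effect minus CD4 effect 0.75 ± 0.22 on the log2 scale, edgeR adjusted p = 0.363), Npm1 (0.56 ± 0.23, edgeR adjusted p = 0.598) and Bysl (-0.47 ± 0.16, edgeR adjusted p = 0.487). The median difference of the members was 0.07, and it lay between 0.03 (without WT CD4 replicate 2) and 0.14 (without STAT3-/- CD4 replicate 2) when 1 library was left out. Of the 50 members 40 were lower in both comparisons, 4 higher in both and 6 had opposite signs, beside 4525, 4678 and 3225 of the 12428 genes.

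In WT T cells 3 members differed between CD8 and CD4, against 23.8% of all genes called (11.6% lower and 12.2% higher). Wdr12 (chromosome 1, 60076868 to 60098500) had 25.4 and 28.1 CPM in WT CD8 and 74.7 and 101 CPM in WT CD4 libraries. The CD8 values were far below the CD4 values (log2 fold change -1.71 ± 0.16, edgeR adjusted p = 0.00035). Bysl was higher in CD8, with 41.8 and 42.5 CPM against 29 and 24.8 CPM and no overlap (0.65 ± 0.11, edgeR adjusted p = 0.00564), and so was Npm3, a histone chaperone of the nucleoplasmin family, with 39.6 and 37.2 CPM against 26.3 and 28.4 CPM (0.49 ± 0.13, edgeR adjusted p = 0.033). Of the 50 members 28 were higher and 22 lower in CD8, and their median was 0.03, which turned to -0.04 without WT CD8 replicate 2 and was 0.05 without WT CD4 replicate 2.

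In STAT3-/- T cells 2 members differed between CD8 and CD4, against 12.5% of all genes (6.67% lower and 5.84% higher). Wdr12 had 26.7 and 29.3 CPM in STAT3-/- CD8 and 52.7 and 56.5 CPM in STAT3-/- CD4 libraries, again lower in CD8 (log2 fold change -0.96 ± 0.16, edgeR adjusted p = 0.00833). Dkc1, the pseudouridine synthase of box H/ACA snoRNPs, had 86.2 and 80.6 CPM in CD8 and 65.8 and 62.9 CPM in CD4 libraries (0.37 ± 0.10, edgeR adjusted p = 0.0416). Gar1, another box H/ACA protein, had the highest log2 fold change, with 22 and 20.5 CPM against 16.2 and 12.8 CPM. It was not called (0.56 ± 0.16, edgeR adjusted p = 0.068). The median of the members was 0.08, and 0.02 without STAT3-/- CD8 replicate 2 and 0.13 without STAT3-/- CD4 replicate 2. Calls here rested in part on single libraries: Npm3 in WT was called in only 2 of the 8 fits that left out 1 library (without STAT3-/- CD8 replicate 1 and without STAT3-/- CD8 replicate 2), Dkc1 was called in none of them, and Wdr12 in STAT3-/- was not called without STAT3-/- CD4 replicate 2 or without STAT3-/- CD8 replicate 1.

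**Figure D4:**
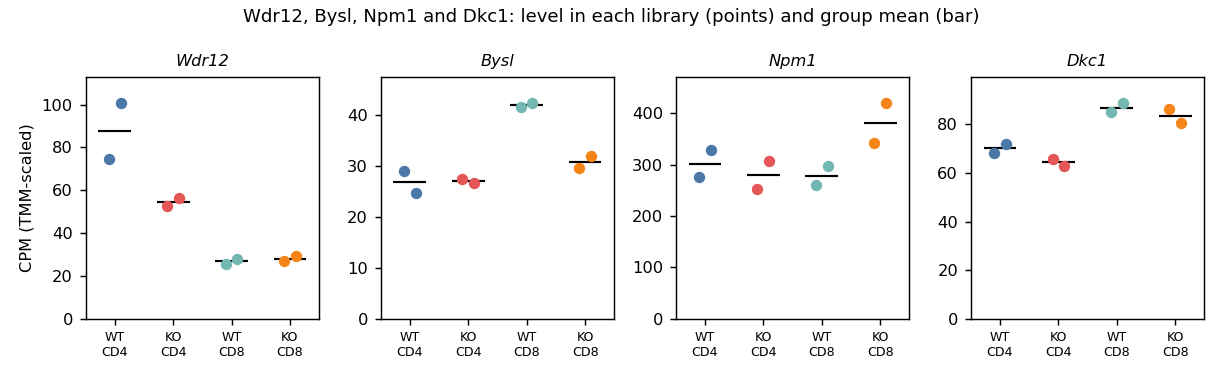
CPM (TMM-scaled, linear axes from 0) in each library (points) and group means of 2 (bars) of Wdr12, Bysl, Npm1 and Dkc1. Wdr12 lies between 25.4 and 29.3 CPM in all CD8 libraries and at 52.7 CPM or more in all CD4 libraries, and Npm1 is highest in the STAT3-/- CD8 libraries.

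A list of 109 other ribosome biogenesis genes (further polymerase I factors, small and large subunit factors, RNA exosome subunits and snoRNP assembly factors) was read in the same fits. In CD4 T cells 5 fell and 1 rose, 84 had a fold change below 0, and the median was -0.19. These 6 calls among 109 are a smaller share than the 11.6% of all genes called, and the 5 lower calls are close to the background of 5.08%. At an unadjusted edgeR p under 0.05 there were 26 of the 109, 23 of them lower. Over all 12428 genes there were 3415, 1566 of them lower. Both STAT3-/- CD4 libraries were below both WT libraries for 50 of the 109, against 25% of all genes. They were above them for 9, against 28.5%. Pwp2, a processome subunit, had the smallest p (log2 fold change -0.64 ± 0.11, edgeR adjusted p = 0.0115), and the others that fell were Rcl1, Cd3eap (a subunit of polymerase I), Sdad1 and Nufip1. Nat10, the acetyltransferase of ribosomal RNA, rose (0.46 ± 0.12, edgeR adjusted p = 0.0434). In CD8 T cells edgeR called 0 of the 109, with 22 at an unadjusted p under 0.05, 19 of these lower. The 22 are close to the share of all genes at this p (2400 of 12428). The 19 lower ones are a larger share than the 1068 of 12428 genes that were lower at this p. In CD8 T cells 82 of the 109 were below 0 and the median was -0.12. The smallest p was that of Cd3eap (-0.59 ± 0.15, edgeR adjusted p = 0.0886), and among genes above 0 that of Utp6, a processome subunit (0.27 ± 0.09, edgeR adjusted p = 0.169).

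Split by the E-box letters, the 10 members with CACGTG were all lower in both cell types, with medians of -0.37 (CD4) and -0.34 (CD8). The 33 members with a promoter entry but without the letters were lower in 30 and 27 cases, with medians of -0.30 and -0.25. In CD4 T cells edgeR called 3 of the 10 members with the letters and 8 of the 33 without them. For CD8 T cells these counts were 0 of the 10 and 2 of the 33. Rrp12, which fell in both cell types, had no promoter entry and is in neither set. No test was made of this split. Myc itself had 167 and 65.3 CPM with WT CD4 and 96 and 42.4 CPM with STAT3-/- CD4 cells. With CD8 cells it had 139 and 75.8 CPM for WT and 76.7 and 48.7 CPM for STAT3-/-. It was higher in the library numbered 1 in each group and lower in the STAT3-/- library within each number, and it was not called in CD4 (-0.75 ± 0.54, edgeR adjusted p = 0.427) or CD8 T cells (-0.78 ± 0.54, edgeR adjusted p = 0.499). In 25 cell cycle genes, all above 0 in STAT3-/- CD4 T cells, 22 rose with a list median of 1.18, while the members had a median of -0.32 in the same libraries. In CD8 T cells the median of that list was 0.32 and 0 genes were called, with 11 at an unadjusted p under 0.05.

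The ribosomal RNA precursor Rn45s took 2.16% and 0.377% of the counts with WT CD4, 2.01% and 1.03% with STAT3-/- CD4, 1.9% and 1.22% with WT CD8, and 1.37% and 1.21% with STAT3-/- CD8 cells. Libraries numbered 1 were higher in each group, and neither genotype difference was called (edgeR adjusted p = 0.844 for CD4 and 0.9 for CD8). Messenger RNA libraries hold only a remainder of this transcript, so its share is no measure of ribosomal RNA made.

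Some members also enclose snoRNA genes within the bounds of the gene. Whether these lie in introns was not checked. In the GENCODE M21 annotation, 8 of the 50 (16%) enclosed 23 snoRNA genes on the same strand, against 1.89% of 11613 tested protein-coding genes. The hosts were Ncl, Nop56, Nop58, Dkc1, Wdr43, Tsr1, Gnl3 and Ppan, of which Gnl3 and Ppan fell in STAT3-/- CD4 T cells. The snoRNAs themselves were not analysed here.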

How the data were processed

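RNA from 8 libraries of sorted T cells, 2 in each of 4 groups, was analysed. The authors aligned the reads to mm10 with STAR and counted them per RefSeq gene with HTSeq. The strand setting is not given in the sources used here. They deposited raw counts and RPKM values (scaled by TMM, per kilobase of exon). Growth and library protocols in the labels describe another cell system and were not used.

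Counts were tested with the quasi-likelihood test of edgeR 4.0.16 (R 4.3.3) in 1 fit over all 8 libraries, with TMM scaling, a filter of 10 counts (filterByExpr) that kept at least 99.96% of counts, and Benjamini-Hochberg adjustment over 12428 genes, called at an adjusted p under 0.05. CPM use TMM-scaled totals, and log2 ratios within a number a prior count of 0.5. RPKM served to compare levels between genes. Alternatives used DESeq2 1.42.0 and limma 3.58.1 on log2 of the deposited RPKM plus 1 or 0.1. The fit was tested on simulated data. With 20171396 counts or more per library, the limit set by a count of 0 was at most 0.149 CPM.

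Members and gene lists were chosen with earlier results of these data known. Values in every library are given for called members (at most 10 per comparison by smallest p), for the most abundant member of each role by RPKM and for the extremes of each comparison. Promoters came from RefSeq (GRCm38.p6) and exon overlaps from GENCODE M21. Replicates differed beyond counting noise in all 4 groups.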

Additional observations from a re-analysis of the deposited data

How the results depend on the processing

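The median log2 fold changes of the members moved by less than the spread between libraries (0.086) under every alternative run, from DESeq2 and other scalings to limma on RPKM and the fits without 1 library. For the small medians this was still a large relative move: without 1 library the interaction median lay between 0.028 and 0.137, and those of CD8 against CD4 between -0.043 and 0.047 in WT and between 0.019 and 0.129 in STAT3-/- T cells. The counts of called members moved more, and in this paragraph they stand without the share of all genes called. In CD4 T cells 12 members were called, against 5 with the 4 CD4 libraries alone, 7 by limma without a filter on low values and 1 to 10 without 1 library. In CD8 T cells the count of 3 became 9 by DESeq2, 0 with the 4 CD8 libraries alone, 1 by limma without a filter and 0 to 2 without 1 library. Between CD8 and CD4 the count was 2 to 3 in WT without 1 library, and in STAT3-/- it was 5 by DESeq2, 1 with column totals, without the filter and with 4 libraries, and 0 to 1 without 1 library. For the other settings, apart from the replicate block of the next paragraph, the counts stayed within 1.5 times. Ppan in CD4 T cells kept its call under all 17 alternatives. The cause of these moves was not tested, though fits with fewer libraries have less to estimate the spread from.

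With the replicate number as a block, 29 members were called in CD4 T cells (30.1% of all genes), 25 in CD8 T cells (18.2%, 24 lower and Npm1 higher), 2 in the interaction (3.24%), 8 between the cell types in WT (42.1%) and 9 in STAT3-/- (29.7%). The 2 in the interaction were Wdr12 (0.74, edgeR adjusted p = 0.0237) and Npm1 (0.56, edgeR adjusted p = 0.0205). Deviations of same-numbered libraries correlated between 0.397 and 0.638 over all genes, for only 2 numbers. Serial numbers in the titles run together within a number, but no label says that it marks a shared source.

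Uncalled values near 0 changed sign. Bysl in CD4 T cells was -0.018 with column totals, -0.013 without the filter, -0.004 with 4 libraries, -0.009, -0.010 and -0.009 by limma, and -0.103 to 0.103 without 1 library (-0.103, -0.034, -0.008 and -0.008 in the 4 fits below 0). Without 1 library, Dcaf13 ranged from -0.205 to 0.3 in CD4 (below 0 in 2 fits, the other at -0.055) and from -0.018 to 0.205 in CD8 T cells (the other below 0 at -0.017). Npm1 and Nop10 in CD4 T cells ranged from -0.258 to 0.013 and from -0.238 to 0.026, and Wdr12 in CD8 T cells from -0.014 to 0.133 (the other below 0 at -0.012).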
